A study of Rattus norvegicus with 12 samples.

Results

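Nuclear-encoded ribosomal RNA (rRNA) fragments were examined in small RNA from rat serum exosomes. They were taken as the Ensembl rat transcripts that the count tables type as rRNA, with the separate mitochondrial type (Mt_rRNA) left out. This gave 154 of the 3655 features listed in either table. The table of the EGME comparison held 142 of them among 3280 features, the table of the CBZ comparison held 132 among 1709, and 120 were in both. Transcripts with a mean of at least 20 counts whose counts agreed within 5% or 3 counts in each library were treated as copies that share their reads, and were taken once. That left 135 copy groups in the EGME comparison and 125 in the CBZ comparison.

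The study looked for small RNA markers of testicular injury. All libraries came from male Sprague-Dawley rats aged 9 weeks, bled 24 h after 1 oral dose. The EGME group received 2000 mg/kg ethylene glycol monomethyl ether, a glycol ether solvent toxic to the testis, in water, and its control, called water here, received the vehicle at 10 mL/kg. The CBZ group received 400 mg/kg of the toxicant that the labels abbreviate CBZ, suspended in corn oil, and its control, called oil here, received the vehicle at 5 mL/kg. Each group had 3 libraries. Nothing in the titles ties a library to its own rat, so p-values reflect only how far the libraries differ, which may be technical. Exosomes were the pellet of a 70 min spin of cleared serum at 208000 g. No protein that defines an exosome was measured here, and fewer vesicles from a source and less RNA per vesicle cannot be told apart.

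Ribosomal RNA forms the core of the ribosome and is the most abundant RNA of most cells. It is transcribed from repeated nuclear genes, and many scattered gene copies and pseudogenes carry nearly the same sequence. Small RNA libraries catch only short pieces of it, and a high-speed pellet of serum can hold ribosomal particles as well as vesicles. The deposited tables do not say which rRNA (5S, 5.8S, 18S or 28S) each transcript belongs to, and 0 of the 154 IDs matched the RefSeq gene table used here. Transcripts are therefore named by ID, and no sequence is shown for them.

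Assigned counts were 608892 to 1235814 per library in the EGME and water groups and 196460 to 598200 in the CBZ and oil groups. A count of 0 allows up to 3 counts, or 2.43 to 4.93 CPM (counts at equal library size) in the first set and 5.02 to 15.3 CPM in the second. Between 77 and 112 rRNA transcripts had a read in each EGME or water library, and between 77 and 108 in each CBZ or oil library. Oil library 2 was the shallowest of the 12 and stood apart from the rest in its rRNA, so each CBZ result is given with and without it. All 6 of the red cell miRNAs checked were detected, at 8.11% to 11.1% of mature miRNA counts in EGME libraries and 6.52% to 9.31% in water libraries. They made up 6.35% to 7.78% in CBZ libraries and 6.86% to 12.1% in oil libraries, with the lowest oil value in library 2. White cell miRNAs stood at 0.352% to 0.476% in EGME libraries and 0.529% to 0.611% in water libraries, and at 0.374% to 0.511% in CBZ libraries and 0.493% to 0.721% in oil libraries. The miRNAs listed for platelets stood at 1.81% to 2.07% in EGME libraries and 1.43% to 1.65% in water libraries. They stood at 3.48% to 4.96% in CBZ libraries and 2.06% to 3.62% in oil libraries. Whether this list came from platelets was not tested. Both liver miRNAs checked stood at 0.495% to 0.930% in EGME libraries and 0.381% to 0.836% in water libraries, and at 0.715% to 1.75% in CBZ libraries and 0.411% to 0.785% in oil libraries. The 3 muscle miRNAs stood at 0.0168% to 0.0262% in EGME libraries and 0.00786% to 0.0303% in water libraries, and at 0.0239% to 0.0593% in CBZ libraries and 0.0156% to 0.05005% in oil libraries. All 5 white cell and all 3 platelet miRNAs checked were detected, so none of these lists was at 0. The part of these sources in the rRNA levels was not tested.

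The rRNA counts were held by few members. The leading one was a group of 7 transcripts (ENSRNOT00000077643.1, ENSRNOT00000084761.1, ENSRNOT00000085643.1, ENSRNOT00000087159.1, ENSRNOT00000089050.1, ENSRNOT00000089300.1 and ENSRNOT00000090107.1), called the 7-copy group here. Its copies differed by at most 3.38% in any EGME or water library and 5.25% in any CBZ or oil library. With copies taken once, it held 49.0%, 48.1% and 38.5% of the rRNA counts in the EGME libraries and 44.5%, 45.5% and 46.1% in the water libraries. It held 75.3%, 76.3% and 79.2% in the CBZ libraries, against 61.1%, 0.816% and 26.8% in oil libraries 1, 2 and 3. The oil libraries thus differed from each other in which rRNA fragments they carried, and the CBZ libraries lay within a narrow range.

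The other member on which the results turn was ENSRNOT00000072497.2. It held 5.39%, 7.03% and 7.01% of rRNA counts in the EGME libraries and 6.50%, 7.34% and 7.64% in the water libraries. It held 2.86%, 2.60% and 2.23% in the CBZ libraries, against 7.35%, 20.2% and 15.1% in the oil libraries, and was the top transcript of oil library 2. Less abundant transcripts followed it at graded levels. In counts per count of ENSRNOT00000072497.2, ENSRNOT00000054649.3 stood at 0.283 to 0.419 over all 12 libraries, ENSRNOT00000073815.2 at 0.153 to 0.267 and ENSRNOT00000053353.3 at 0.0618 to 0.233. In oil library 2 these ratios were 0.366, 0.228 and 0.0896, inside the range of the other libraries. The ENSRNOT00000072497.2 set is used here for the 10 copy groups that edgeR called lower after CBZ without oil library 2. All 10 stood high in oil library 2, and the set was put together after their values were seen. ENSRNOT00000052626.3 also stood high there, at 35.6 times the mean of the other oil libraries. It was not called without that library (edgeR adjusted p = 0.177) and is not in the set. The 10 are ENSRNOT00000072497.2, ENSRNOT00000053226.3, ENSRNOT00000052795.3, ENSRNOT00000054649.3, ENSRNOT00000069467.1, ENSRNOT00000052439.3, ENSRNOT00000073815.2, ENSRNOT00000073261.1, ENSRNOT00000053353.3 and ENSRNOT00000074819.1. These transcripts may share reads in part, since the rule for reads that match several copies is not given in the sources used here. With a looser copy rule of 10% or 10 counts, 131 and 115 groups remained in the EGME and CBZ comparisons.

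**Figure D1:**
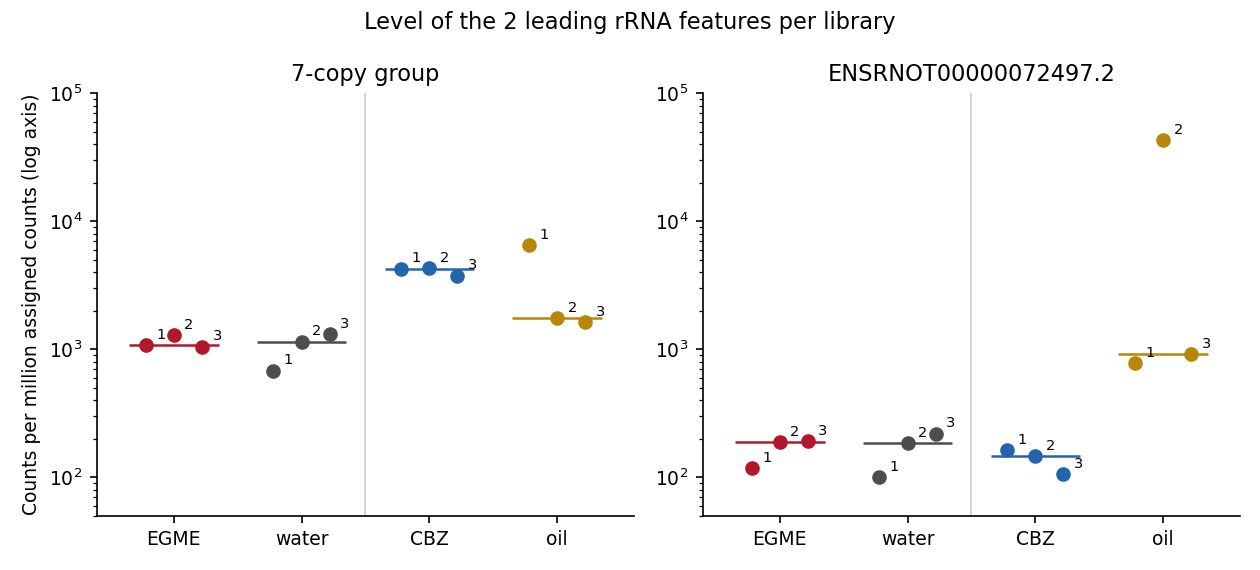
Level of the 7-copy group and of ENSRNOT00000072497.2 in each library, in CPM without TMM scaling, on a log axis. Points are libraries with their replicate number and lines are group medians, and oil library 2 stands at 43139 CPM for ENSRNOT00000072497.2, against 782 and 919 CPM in the other oil libraries.

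Nuclear rRNA took under 1% of the counts in EGME and water libraries. With copies once, its share was 0.252% (exact 95% binomial interval 0.238 to 0.266), 0.366% (0.354 to 0.379) and 0.320% (0.307 to 0.333) in the EGME libraries. The water libraries gave 0.203% (0.192 to 0.214), 0.399% (0.383 to 0.415) and 0.479% (0.460 to 0.498). The groups overlapped, at 0.313% ± 0.0576 after EGME and 0.360% ± 0.142 after water (SD, n = 3 each), and the difference of -0.0474 percentage points had p = 0.7 in a two-sided exact permutation test. That test cannot go below 0.1 with 3 libraries against 3. Taking all copies as deposited turned the difference round, to 0.0717 percentage points.

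In the CBZ comparison the rRNA share turned on 1 library. The CBZ libraries held 0.866% (0.832 to 0.900), 0.936% (0.898 to 0.975) and 0.726% (0.694 to 0.759). The oil libraries held 1.60% (1.55 to 1.65), 27.9% (27.7 to 28.2) and 0.897% (0.868 to 0.926). The mean was 0.843% ± 0.107 after CBZ and 10.1% ± 15.4 after oil (SD, n = 3 each), a difference of -9.30 percentage points (two-sided exact permutation p = 0.2). CBZ library 2 lay above oil library 3, so the groups overlapped. Without oil library 2 the oil mean was 1.25% ± 0.497 (n = 2) and the difference -0.406 percentage points, a ratio of 0.675 (exact p = 0.2). The share depended on how copies were taken. With the looser copy rule, which merges much of the ENSRNOT00000072497.2 set, oil library 2 held 12.8% (12.6 to 13.0). The means were then 0.772% ± 0.0940 after CBZ and 4.87% ± 6.90 after oil (SD, n = 3 each), a difference of -4.10 percentage points (exact p = 0.4), and without oil library 2 the difference was -0.118 and the ratio 0.867 (exact p = 0.8). Beside this, misc_RNA transcripts took 29.5%, 36.2% and 40.1% of counts in the CBZ libraries and 26.8%, 16.2% and 40.4% in the oil libraries.

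**Figure D2:**
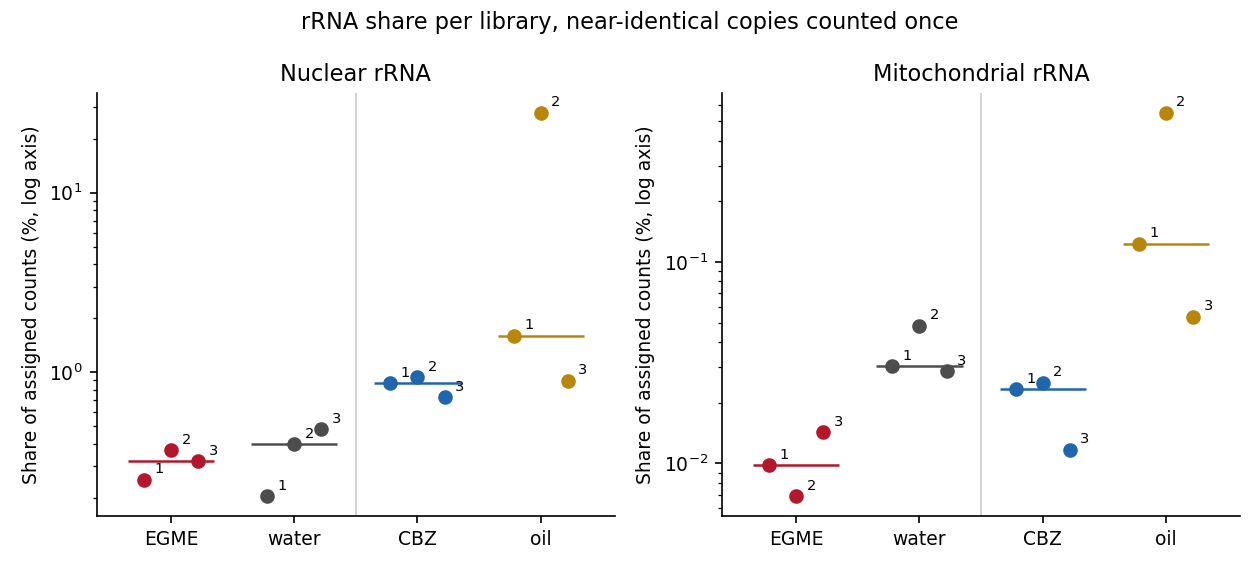
Nuclear rRNA (left) and mitochondrial rRNA (right) as a percent of assigned counts in each library, with near-identical copies taken once, on log axes. Points are libraries with their replicate number and lines are group medians, and for nuclear rRNA 11 of the 12 libraries lie between 0.203% and 1.60% while oil library 2 lies at 27.9%.

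Mitochondrial rRNA, which is transcribed from the mitochondrial genome and forms the ribosome of that organelle, separated the groups. It took 0.00980%, 0.00685% and 0.0143% of counts in the EGME libraries and 0.0304%, 0.0483% and 0.0288% in the water libraries. It took 0.0234%, 0.0252% and 0.0117% in the CBZ libraries and 0.123%, 0.551% and 0.0535% in the oil libraries. In both comparisons the groups did not overlap (exact p = 0.1 each, the lowest the design allows). This was not particular to mitochondrial rRNA. Mitochondrial tRNA also had exact p = 0.1 in both comparisons. So did misc_RNA, higher after EGME, and after CBZ tRNA, which was higher, and small nucleolar RNA, which was lower. With oil library 2 left out, mitochondrial rRNA and mitochondrial tRNA kept exact p = 0.1 after CBZ, for 3 libraries against 2. The tRNA class then had exact p = 0.3 (ratio 1.19) and small nucleolar RNA exact p = 0.2 (ratio 0.791). Without oil library 2 the ratio of CBZ to oil was 0.227 for mitochondrial rRNA, against 0.675 for nuclear rRNA. That difference between the classes was not tested.

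After EGME no rRNA fragment passed the test. edgeR's quasi-likelihood test with Benjamini-Hochberg adjustment over all 330 tested features called 0 of 22 tested rRNA copy groups, where percent called over all features was 0%, and the lowest adjusted p of an rRNA group was 0.115. At an unadjusted p under 0.05 edgeR had 4 of the 22 rRNA groups, or 18.2%, against 17.9% of all tested features. Those features include every copy. With copies of all classes taken once in the fit it was 0 of 20 groups, against 45 of 281 features. The DESeq2 Wald test called 0 of the 18 rRNA groups it gave an adjusted p, against 6.71% of all features. All 22 fitted log2 differences were above 0, from 0.03 to 1.45, with a median of 0.38 beside -0.02 over all tested features. This count is no support for a rise. The filter on low counts asked for 11.4 CPM in 3 libraries. It passed 9 of the 22 with all 3 EGME libraries over it and fewer of the water libraries, and 0 the other way round. The 10 groups over it in all 6 libraries were above 0 too, with differences from 0.04 to 0.32. The signs also moved with 1 library and with scaling. EGME library 2, with a TMM scaling factor of 0.683, was the highest library in 19 of the 22 groups, and 12 of 20 differences were above 0 without it (median 0.15). Without TMM scaling 17 of 22 were above 0, and with copies taken once in the fit 16 of 20. With upper quartile scaling edgeR called 4 of 22 higher, against 6.97% of all features, while the median over all features shifted to 0.31. Those 4 were ENSRNOT00000054268.1, ENSRNOT00000069841.1, ENSRNOT00000070269.1 and ENSRNOT00000052720.3. All 4 passed the filter through the EGME libraries, where they were high, with 0 or 1 water library over it. With the replicate number as a block edgeR called 1 of 22 higher, against 3.03% of all features. It was ENSRNOT00000054268.1 (edgeR adjusted p = 0.0470), which is among those 4.

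The abundant members overlapped between the groups. Levels of members are TMM-scaled CPM from here on. The 7-copy group, read from ENSRNOT00000077643.1, stood at 935, 1893 and 933 CPM in the EGME libraries, against 635, 1206 and 1212 CPM in the water libraries. Its means were 1254 ± 554 CPM after EGME and 1018 ± 332 CPM after water (SD, n = 3 each), a log2 difference of 0.30 (SE 0.411, edgeR adjusted p = 0.742). EGME library 2 alone stood above all water libraries. Without TMM scaling it stood at 1291 CPM, below water library 3 at 1321 CPM.

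ENSRNOT00000072497.2 stood at 103, 276 and 170.1 CPM in the EGME libraries, against 92.8, 195 and 201 CPM in the water libraries (log2 difference 0.17, SE 0.431, edgeR adjusted p = 0.873). ENSRNOT00000053226.3 stood at 87.2, 262 and 165 CPM after EGME, against 89.7, 193 and 193 CPM after water (0.11, SE 0.444, edgeR adjusted p = 0.920). ENSRNOT00000053449.3 stood at 87.2, 252 and 156 CPM after EGME, against 97.0, 188 and 193 CPM after water (0.05, SE 0.428, edgeR adjusted p = 0.976). In these 3 EGME library 2 was the highest and the groups overlapped. ENSRNOT00000052795.3 followed the same order, at 80.02, 252 and 159 CPM after EGME, against 90.7, 183 and 185 CPM after water (0.10, SE 0.441, edgeR adjusted p = 0.933). The signs of all 4 turned without TMM scaling. Unscaled, ENSRNOT00000072497.2 was at 189 CPM in EGME library 2, below EGME library 3 at 191 CPM and water library 3 at 219 CPM.

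ENSRNOT00000091009.1 had the opposite order among the EGME libraries. It stood at 213, 77.1 and 116 CPM after EGME, against 129, 137 and 128 CPM after water (log2 difference 0.04, SE 0.383, edgeR adjusted p = 0.981). The water libraries differed little, and the EGME libraries lay on both sides of them.

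The 3 groups that separated EGME from water were scarce. ENSRNOT00000054268.1 stood at 10.0, 23.7 and 13.3 CPM in the EGME libraries, against 5.21, 6.49 and 5.34 CPM in the water libraries (log2 difference 1.45, SE 0.462, edgeR adjusted p = 0.115). ENSRNOT00000070269.1 (0.99, edgeR adjusted p = 0.211) and ENSRNOT00000069841.1 (1.22, edgeR adjusted p = 0.230) were also higher in every EGME library. Groups that did not overlap, higher after EGME, were 3 of 22 rRNA groups and 9.7% of all tested features, and those lower after EGME were 0 of 22 and 8.79%. Each of the 3 passed the filter through its EGME libraries, with 0 or 1 water library over the limit. They were singled out after their values were seen.

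**Figure D3:**
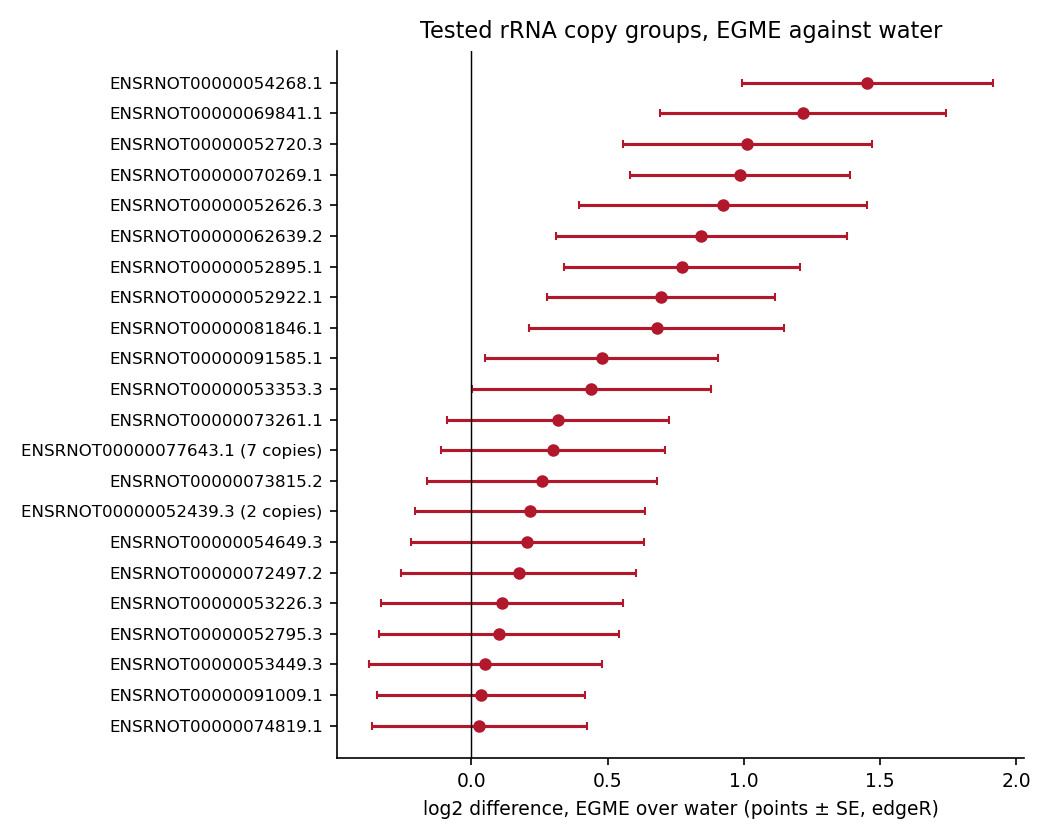
Log2 difference of EGME over water for each of the 22 tested rRNA copy groups, from edgeR, as points with the SE as bars. All points lie above 0, the largest being ENSRNOT00000054268.1 at 1.45, and none passes the adjusted p threshold of 0.05.

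After CBZ most tested rRNA groups had lower levels than in an oil group that held 1 extreme library. edgeR called 0 of 19 rRNA copy groups at an adjusted p under 0.05, where percent called over the 244 tested features was 0%, and the lowest adjusted p of an rRNA group was 0.133. At an unadjusted p under 0.05 edgeR had 13 of 19, against 26.2% of all features. With copies taken once in the fit it was again 13 of 19, against 46 of 195 features. The DESeq2 Wald test called 4 of the 7 rRNA groups with an adjusted p, all lower, against 11.6% of all features called and 9.18% called lower, and gave no p for 11 of the 19 under its rule for outlying counts. Those 4 were ENSRNOT00000054268.1 (DESeq2 adjusted p = 0.00194), ENSRNOT00000081846.1 (0.0104), ENSRNOT00000052895.1 (0.0169) and ENSRNOT00000052922.1 (0.0375), named after their values were seen. Without oil library 2 edgeR called 0 of these 4, with log2 differences from -1.14 to -0.06 and edgeR adjusted p from 0.108 to 0.917. ENSRNOT00000054268.1 passed the filter on low counts with 0 CBZ libraries and 3 oil libraries over it. With all 6 libraries the fitted log2 difference was below 0 in 17 of 19 (median -5.99, beside 0.12 over all features). These counts include near-copies: with the looser copies taken once, 8 of 10 groups were below 0 (median -1.56). In that fit 5 of the 10 had an unadjusted p under 0.05 in edgeR, against 37 of 178 features. With the replicate number as a block the median was -3.37, and 9 of 19 had an unadjusted p under 0.05, against 33 of 244 features. Groups that did not overlap, lower after CBZ, were 13 of 19, against 15.2% of all features, and those higher were 0 of 19 against 19.7%. The filter on low counts, 24.5 CPM here, passed 5 of the 19 with all oil libraries over it and fewer of the CBZ libraries, and 1 the other way round. Of the 10 groups over it in all 6 libraries, 8 had a difference below 0.

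Of the 6 groups with the highest mean, 5 were lower in every CBZ library than in every oil library, and the 7-copy group was not. ENSRNOT00000072497.2 stood at 155, 143 and 95.3 CPM in the CBZ libraries, against 859, 42452 and 1057 CPM in oil libraries 1, 2 and 3 (log2 difference -6.82, SE 1.87, edgeR adjusted p = 0.133). ENSRNOT00000053226.3 stood at 133, 135 and 95.3 CPM after CBZ, against 850.3, 42352 and 1044 CPM after oil (-6.92, SE 1.87, edgeR adjusted p = 0.133). ENSRNOT00000052795.3, which stands for itself and the copy ENSRNOT00000053449.3, was at 123, 112 and 84.3 CPM after CBZ, against 822, 42107 and 1011 CPM after oil (-7.10, SE 1.90, edgeR adjusted p = 0.133). In these 3 oil library 2 was 44.3 to 45.9 times the mean of the other oil libraries.

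ENSRNOT00000054649.3 was at 55.9, 42.8 and 39.9 CPM after CBZ, against 243, 15528 and 317 CPM after oil (-6.85, SE 1.96, edgeR adjusted p = 0.133). ENSRNOT00000069467.1 was at 53.7, 49.9 and 31.0 CPM after CBZ, against 243, 15508 and 308 CPM after oil (-6.89, SE 1.98, edgeR adjusted p = 0.133). They too did not overlap. The 7-copy group, read from ENSRNOT00000089050.1, was at 4071, 4183 and 3384 CPM after CBZ, against 7140.5, 1718 and 1886 CPM after oil. Its means were 3879 ± 433 CPM after CBZ and 3582 ± 3083 CPM after oil (SD, n = 3 each), a log2 difference of 0.11 (SE 0.607, edgeR adjusted p = 0.881). The CBZ libraries lay between the highest and the other oil libraries, so the groups overlapped, and oil library 2 was at 0.381 times the mean of the other oil libraries.

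The remaining tested groups varied in how far oil library 2 stood out. Oil library 2 was 35.6 to 63.7 times the mean of the other oil libraries in ENSRNOT00000052626.3 and the 10 groups of the ENSRNOT00000072497.2 set, and 7.90 to 12.1 times in ENSRNOT00000081846.1, ENSRNOT00000052922.1, ENSRNOT00000052895.1 and ENSRNOT00000054268.1. In ENSRNOT00000091009.1, ENSRNOT00000083992.1 and ENSRNOT00000091585.1 it was 1.29 to 1.75 times. ENSRNOT00000091009.1 stood at 161, 107 and 77.6 CPM after CBZ, against 117, 145 and 71.1 CPM after oil, a log2 difference of 0.07 with overlapping groups. Oil library 2 was the highest library in 16 of the 19 tested groups.

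Without oil library 2, 10 of 20 tested rRNA groups fell after CBZ. edgeR's quasi-likelihood test gave them adjusted p from 0.000231 to 0.0137, and log2 differences from -3.11 to -1.61, with 3 CBZ libraries against 2 oil libraries. In that fit 10.1% of the 258 tested features were called, and 6.98% were called lower. The fitted difference was below 0 in 19 of 20 rRNA groups, with a median of -1.38 beside 0.09 over all features, and 13 of 20 did not overlap, lower after CBZ, against 19% of all features. Of the 10, 7 were over the filter limit of 24.3 CPM in all 5 libraries. ENSRNOT00000074819.1 was over it in 0 CBZ libraries, ENSRNOT00000053353.3 in 1 and ENSRNOT00000073261.1 in 2, so the first and second passed the filter through the oil libraries, where they were high. Leaving out any other library gave 0 calls. With all 6 libraries kept, 1 fit over all 12 libraries called 10 of 25 lower (5.2% of all features), 9 of them among the 10 called without oil library 2. Without the filter on low counts edgeR called 10 of 125 lower (1.11%), and 0 of these were among those 10. The log2 difference was -3.11 for ENSRNOT00000052795.3 (SE 0.285), -2.96 for ENSRNOT00000053226.3 (SE 0.284) and -2.87 for ENSRNOT00000072497.2 (SE 0.299). Against the mean of oil libraries 1 and 3, the CBZ mean of ENSRNOT00000072497.2 was 0.137 times as high.

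The other 7 that fell were ENSRNOT00000069467.1, ENSRNOT00000052439.3, ENSRNOT00000054649.3, ENSRNOT00000074819.1, ENSRNOT00000073261.1, ENSRNOT00000073815.2 and ENSRNOT00000053353.3. The 10 made up 4 sets under the looser copy rule, so they are fewer than 10 separate observations. ENSRNOT00000054268.1 (-1.14, edgeR adjusted p = 0.108) and ENSRNOT00000052626.3 (-1.09, edgeR adjusted p = 0.177) did not pass. The 7-copy group had a log2 difference of -0.22 (SE 0.497, edgeR adjusted p = 0.777) and ENSRNOT00000091009.1 one of 0.31 (SE 0.403, edgeR adjusted p = 0.646).

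**Figure D4:**
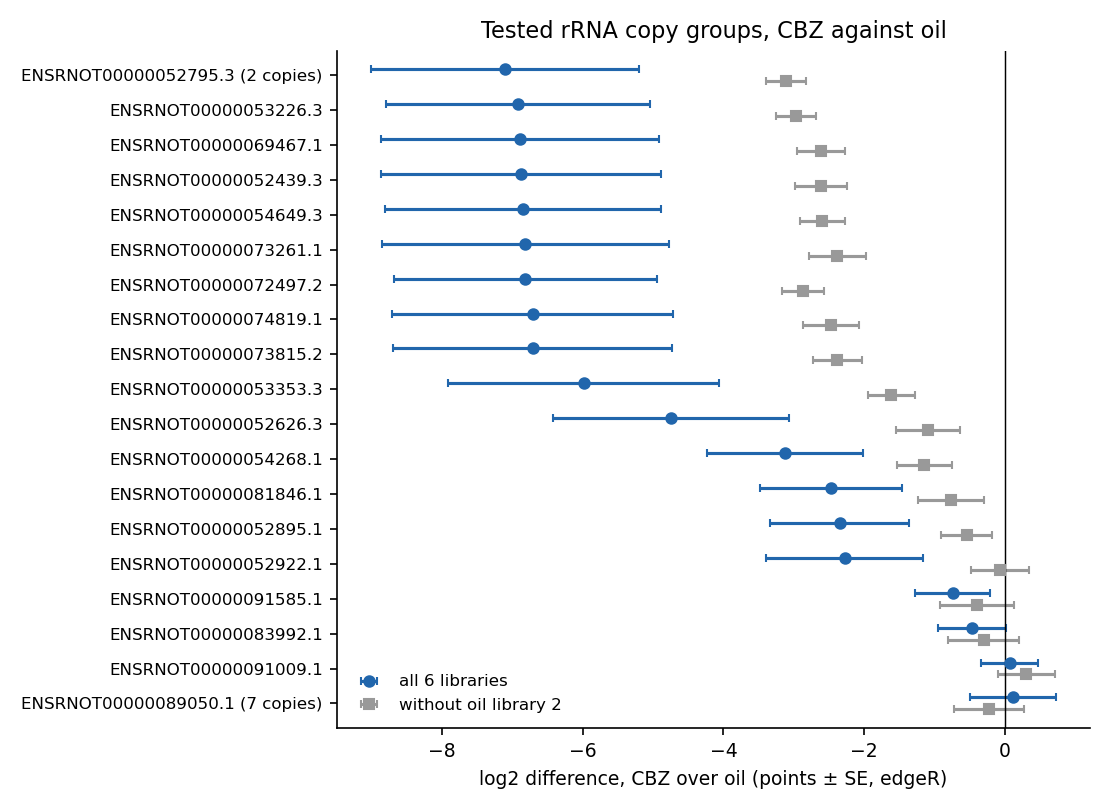
Log2 difference of CBZ over oil for each of the 19 tested rRNA copy groups, from edgeR, as points with the SE as bars, with all 6 libraries (circles) and without oil library 2 (squares). The ENSRNOT00000072497.2 set lies between -7.10 and -5.99 with all libraries and between -3.11 and -1.61 without that library. The set holds the groups called lower without that library, so the second range is no separate support. The 7-copy group lies at 0.11 with all libraries and at -0.22 without that library.

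The balance between both leading members was set out as the ratio of ENSRNOT00000072497.2 to the 7-copy group within a library, which does not depend on scaling between libraries. This ratio was chosen after the values were seen. It was 0.110, 0.146 and 0.182 in the EGME libraries and 0.146, 0.161 and 0.166 in the water libraries (log2 difference -0.14, two-sided exact permutation p = 0.6). It was 0.0380, 0.0341 and 0.0282 in the CBZ libraries, against 0.120, 24.7 and 0.561 in the oil libraries (log2 difference -5.16, exact p = 0.1, the smallest possible). Every CBZ library was below every oil library, and also below every EGME and water library, whose values come from a separate table. Without oil library 2 the log2 difference was -2.97, with exact p = 0.1 for 3 libraries against 2. The ratio rests on 72, 60 and 43 counts of ENSRNOT00000072497.2 in the CBZ libraries, against 307, 8475 and 550 in the oil libraries.

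**Figure D5:**
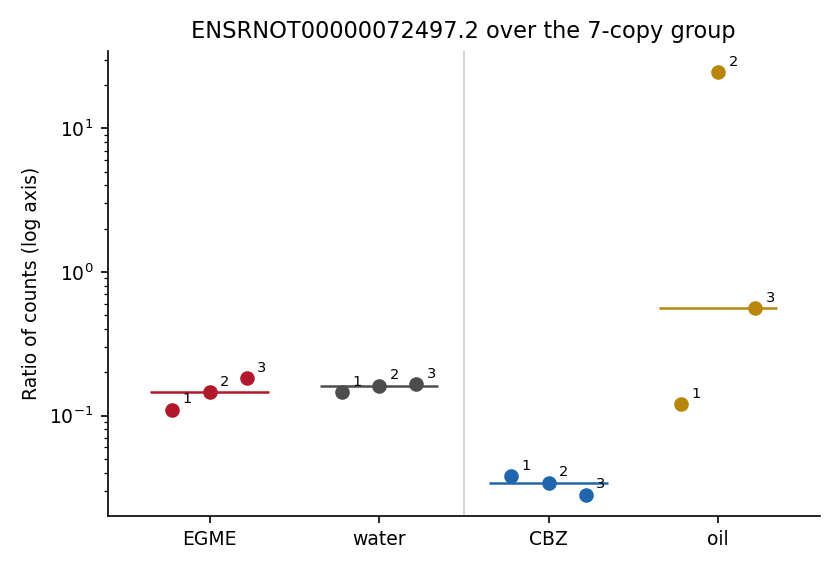
Ratio of ENSRNOT00000072497.2 to the 7-copy group within each library, on a log axis, with 1 point per library. The CBZ points lie at 0.0282 to 0.0380, below the oil points at 0.120, 0.561 and 24.7, while EGME and water points overlap between 0.110 and 0.182.

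Most members were too scarce to test. In the EGME comparison 113 of 135 groups failed the filter on low counts. Of these 77 had under 10 counts over the 6 libraries, and the highest total among the 113 was 54. In the CBZ comparison 106 of 125 failed, 66 of them with under 10 counts, and the highest total was 289. Groups read in a single library numbered 26 in each comparison, and those read in all 6 libraries 48 and 41 in the EGME and CBZ comparisons. Over all groups, scarce ones included, EGME library 2 was the highest library in 67 of 135 and oil library 2 in 92 of 125. Among the 40 untested groups with at least 10 counts in the CBZ comparison, oil library 2 was the highest in 34 and held a median of 55.3% of the counts.

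The EGME effect was set against the CBZ effect in 1 model of all 12 libraries, on the features in both tables, as the EGME difference minus the CBZ difference. edgeR called 0 of 26 rRNA groups, where percent called over 327 tested features was 0%, with a lowest adjusted p of 0.0505, and DESeq2 called 5 of the 13 with an adjusted p, against 10.2% of all features. Those 5 were ENSRNOT00000054268.1, ENSRNOT00000062639.2, ENSRNOT00000052895.1, ENSRNOT00000081846.1 and ENSRNOT00000070269.1, named after their values were seen. At an unadjusted p under 0.05 edgeR had 19 of 26, against 24.8% of all features. With copies taken once in the fit it was 21 of 28, against 59 of 306 features. All 26 differences in the main fit were above 0 (median 5.13, beside 0.24 over all features). Without oil library 2, 25 of 26 were above 0, with a median of 2.05 beside 0.05 over all features. These counts include near-copies: with the looser copies taken once, 20 of 21 were above 0 (median 2.87, beside 0.28). The difference was 6.99 for ENSRNOT00000072497.2 (SE 1.79) and 4.58 for ENSRNOT00000054268.1 (SE 1.12), each with edgeR adjusted p = 0.0505. Without oil library 2 these were 3.14 and 2.67. For the 7-copy group, read from ENSRNOT00000084761.1, the difference with all libraries was 0.23 (SE 0.718, edgeR adjusted p = 0.891). The call turned on the oil libraries: 20 of 28 rRNA groups were called higher without oil library 1 (9.75% of all features), 13 of 26 without oil library 2 (4.11%) and 22 of 29 without oil library 3 (8.08%). With DESeq2 size factors in edgeR it was 10 of 26 (3.36%). The count was 1 of 29, ENSRNOT00000054268.1, without CBZ library 1, against 2 of 356 features called higher, and 0 without any other library.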

How the data were processed

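Serum exosome small RNA was sequenced on a MiSeq in 12 libraries, per the labels' protocols. The authors deposited raw counts of reads per feature as whole numbers, in 1 table per comparison. The submitters' processing notes name edgeR without a version. The aligner, the build and the multi-mapping rule are not given in the sources. The authors' normalized tables hold 0 rRNA features and were not used. Groups and replicate numbers came from titles.

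The main test was the robust quasi-likelihood fit of edgeR 4.0.16 in R 4.3.3, with TMM scaling and the filterByExpr minimum of 10 counts, run for each toxicant and its vehicle, with Benjamini-Hochberg adjustment over all tested features and a threshold of 0.05. SEs were derived from F statistics. All transcripts entered the fit, and copies were counted once when members were counted. The fit was tested on simulated data. Shares were compared by two-sided exact permutation in scipy 1.17.1. Intervals are Clopper-Pearson, and these and the floor of 3 counts cover counting error only, since the libraries carry no molecular identifiers. Libraries within a group differed by a chi-square of at least 21.6 per degree of freedom, so none was taken as a repeat of another.

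The members and lists were chosen with earlier results of these data known. Named were the 6 copy groups with the highest mean CPM in each comparison, and any called in the main test, which was none; others were named after their values were seen. Alternatives were other scalings (DESeq2 size factors, upper quartile, none, features other than rRNA), no filter, 10 counts in 3 libraries, copies once, the DESeq2 1.42.0 Wald test, a joint fit of all libraries, a replicate block and each library omitted in turn. The looser copy rule and the ratio of both leading members were added after the data were seen.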

Additional observations from a re-analysis of the deposited data

How the results depend on the processing

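The EGME count of called rRNA groups, 0, was 4 with upper quartile scaling, where the median of all features moved to 0.31, 1 with the replicate number as a block, and 0 to 0 with each library left out. The CBZ count, 0, was 10 without a filter, 4 with the DESeq2 Wald test and 10 with all 12 libraries in 1 fit, and 0 to 10 with each library left out (10 without oil library 2). The count for the contrast of both effects, 0, was 10 with DESeq2 size factors, 5 with the DESeq2 Wald test and 0 to 22 with each library left out. It was 5 of 26 without scaling, all higher, where 5 of 327 features were called higher. With scaling from other features it was 5 of 26, against 5 of 327 called higher. Without a filter it was 15 of 114, against 17 of 1334 called higher. With the filter of 10 counts in 3 libraries it was 1 of 28, against 1 of 350 called higher. With the block it was 1 of 26, against 1 of 327 called higher. Same-numbered libraries correlated at 0.462, 0.430 and -0.128 in the EGME comparison and at -0.225, -0.0437 and 0.313 in the CBZ comparison. Libraries with different numbers reached at most 0.209 in the EGME comparison and 0.241 in the CBZ comparison. With 3 libraries per group these values cannot settle whether the numbers pair them. In an exact paired permutation test the block gave p = 0.75 for the EGME share and 0.25 for the CBZ share, the smallest possible with 3 pairs, and left their values at -0.0474 and -9.30.

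The EGME share difference became 0.0717 percentage points as deposited and 0.0671 without misc_RNA, and ranged from -0.126 to 0.0120 with each library left out. The CBZ share difference was -8.13 as deposited, -11.0 without misc_RNA and -4.10 with looser copies, and ranged from -13.9 to -0.406 with each library left out.

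Signs of small EGME differences turned. Without scaling ENSRNOT00000072497.2 was at -0.0132, ENSRNOT00000053226.3 at -0.0763, ENSRNOT00000053449.3 at -0.14 and ENSRNOT00000052795.3 at -0.0917. With looser copies ENSRNOT00000053226.3 was at -0.0164 and ENSRNOT00000091009.1 at -0.11. ENSRNOT00000053449.3 was at -0.0246 without a filter, -0.0134 with 10 counts in 3 libraries, -0.0522 with copies once and -0.0103 with the block. With copies once ENSRNOT00000052795.3 was at -0.0011 and ENSRNOT00000091009.1 at -0.0854, and with the block the second was at -0.0746. With each library left out ENSRNOT00000077643.1 ranged from -0.10 to 0.59, ENSRNOT00000072497.2 from -0.23 to 0.57, ENSRNOT00000053226.3 from -0.31 to 0.54, ENSRNOT00000053449.3 from -0.37 to 0.46, ENSRNOT00000052795.3 from -0.33 to 0.54, ENSRNOT00000091009.1 from -0.34 to 0.34 and the log2 ratio of both leading members from -0.31 to 0.0512. The 7-copy group ranged from -0.25 to 1.11 after CBZ and from -0.66 to 0.55 in the contrast of both effects, where it was -0.23 without scaling. The causes were not tested. Of the values over all alternatives, 77 of 100 kept direction and side of the threshold in the EGME comparison, 87 of 99 in the CBZ comparison and 94 of 130 in the contrast. Values that kept direction but had no adjusted p were counted as kept. ENSRNOT00000072497.2 in the CBZ comparison under DESeq2 was among them.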

Other observations

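Other RNA classes also stood highest in oil library 2. The small nuclear RNAs of the spliceosome took 0.0627%, 0.0491% and 0.0377% of counts in the CBZ libraries, against 0.0394%, 0.202% and 0.0314% in oil libraries 1, 2 and 3. The small nucleolar RNAs, which guide rRNA modification, took 0.0454%, 0.0499% and 0.0373% in the CBZ libraries, against 0.0601%, 0.148% and 0.0518% in the oil libraries. Long intergenic RNAs took 0.0454%, 0.0398% and 0.0264% in the CBZ libraries, against 0.0413%, 0.143% and 0.0211% in the oil libraries. In each of these classes oil library 2 was the highest of the 6.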
